A study of Mus musculus with 3 samples.

Results

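Maf, Nr4a1, Klf2, Klf4, Irf8, Irf4, Spi1, Cebpa and Cebpb are 9 transcription factors known to set what a blood monocyte becomes. They were taken by gene symbol, and all 9 were found among the 53802 gene rows of the deposited tables. Their levels were followed in 3 single-cell RNA libraries of Ly6Chi monocytes, the inflammatory monocytes that enter an injured liver, and in marker-gated groups of cells within each library.

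The mice were male C57BL/6, 8 weeks old, and each was fasted for 12 h, given 300 mg/kg acetaminophen into the peritoneum and allowed chow again after 2 h. Livers were taken at 24 h and digested for 45 min at 37 °C with collagenase VIII before Ly6Chi monocytes were sorted. Both control libraries (numbers 1 and 3) carried Commd10fl/fl, the floxed gene without deletion. The knockout library, numbered 4, carried LysMDCommd10, in which the LysM driver deletes Commd10 in myeloid cells, so other LysM-expressing cells of these mice are targeted too. Every group had received acetaminophen, so no uninjured level is available for comparison here. It is not stated in the labels if each library came from 1 mouse, so p-values reflect the variation among these 3 libraries alone, and that variation may be technical.

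The cre counts of labelled control 3 went against its label. The transcript of cre gave 0 UMIs (unique molecular identifiers, each counting 1 captured transcript) in control 1, 47 UMIs in labelled control 3 and 11 UMIs in knockout 4. Commd10 itself stood at 17.6, 10.3 and 8.44 CPM (the UMIs of a gene scaled to a common total) in control 1, labelled control 3 and knockout 4 (log2 knockout over control -0.67 ± 0.32 SE, adjusted p = 0.633), and which exons are deleted was not stated in the sources used here. Lyz2, the gene at which the LysM driver sits, stood at 15363, 11565 and 6472 CPM, lowest in knockout 4 (log2 -1.01 ± 0.20, adjusted p = 0.192). The main genotype values are also given against each control library on its own. The barcodes numbered 4814, 8109 and 5152, beside 4860, 8149 and 5229 cells stated for the study, and 4115, 7449 and 4457 passed the filters, with medians of 8770, 8160 and 6865 UMIs. Pairs of libraries shared 8 to 26 barcodes, and no cre UMI lay in a shared barcode. Lymphocyte-gated cells (17 to 37 a library) and neutrophil-gated cells (8 to 10) were left out, which left 4068, 7409 and 4431 monocyte-macrophage cells. Monocyte markers were high in all 3 libraries (6 of 6 markers detected, summed 5917, 8665 and 7826 CPM), and so were macrophage markers (5047, 6262 and 4896 CPM). Of the other lists, type 1 dendritic cell markers summed to 222, 195 and 212 CPM, erythroid to 42.7, 61.2 and 30.3 CPM, hepatocyte to 22.0, 64.9 and 27.7 CPM, and platelet to 3.49, 3.73 and 29.8 CPM. Type 2 dendritic cell markers reached at most 24.8 CPM, endothelial 21.7, B cell 9.31, Kupffer cell 5.62, neutrophil 2.70, plasmacytoid dendritic cell 2.10, T and NK cell 1.25, and basophil and mast cell 0.0337 CPM. Many of the B cell, T and NK cell and neutrophil markers also served to gate the cells left out. Their low sums were therefore set in part by that step and are no separate measure of purity.

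Spi1, Cebpa and Cebpb act early and broadly in the myeloid lineage: Spi1 encodes an ETS factor required to make monocytes, and the C/EBP factors open and maintain myeloid genes. Klf4, Klf2 and Nr4a1 are associated with quiescent and patrolling monocytes, and Nr4a1 is known to be needed for the Ly6C-low patrolling cell; all 3 are also rapid response genes. Irf8 directs progenitors toward monocytes and dendritic cells, Irf4 serves in alternatively activated macrophages and in dendritic cells, and Maf helps mature macrophages keep their identity.

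On GRCm38 with GENCODE M21, Spi1 spans chr2:91082390-91115756 and Cebpb chr2:167688915-167690418, both on the plus strand. Cebpa lies at chr7:35119293-35121928 (plus), Klf4 at chr4:55527143-55532466 (minus) and Klf2 at chr8:72319033-72321656 (plus). Nr4a1 lies at chr15:101254269-101274795 (plus), Irf8 at chr8:120736358-120756694 (plus), Irf4 at chr13:30749226-30766976 (plus) and Maf at chr8:115682942-115707794 (minus). Cebpb has 1 exon and overlaps Tmem189 on the other strand (2974, 5482 and 3159 UMIs in control 1, labelled control 3 and knockout 4), and Maf overlaps Gm15655 (258, 429 and 144 UMIs). Cebpa overlaps Gm45091 on the other strand (2, 1 and 0 UMIs), and Irf8 overlaps Gm20388 on its own strand (0 UMIs). The files count each partner on its own, but strand use in counting is not given, so reads assigned to the wrong partner cannot be told apart.

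Of the 9 factors, 7 have a promoter in RefSeq's table on GRCm38.p6 (Spi1 and Maf have none there). The stretches before the start site of Nr4a1, Klf2 and Klf4 are shown because these 3 genes were raised together in patrolling cells below. Spi1, Cebpb and Irf8 were also higher there, and no stretch of theirs is shown. The promoters were searched on both strands for the core TGACG of the cAMP response element, an element through which rapid response genes are switched on. Capitals mark it (CGTCA where it lies on the other strand). The Nr4a1 stretch is chr15:101266596-101266845 on the plus strand, inside an intron of longer GENCODE transcripts, the Klf2 stretch is chr8:72318812-72319032 on the plus strand, ending at the base before GENCODE's start, and the Klf4 stretch is chr4:55532476-55532725 on the minus strand.
Nr4a1: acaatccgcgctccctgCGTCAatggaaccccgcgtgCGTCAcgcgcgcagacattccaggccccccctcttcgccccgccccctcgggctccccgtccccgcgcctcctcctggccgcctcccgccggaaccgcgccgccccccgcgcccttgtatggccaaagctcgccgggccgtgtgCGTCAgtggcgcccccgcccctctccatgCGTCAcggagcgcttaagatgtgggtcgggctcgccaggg
Klf2: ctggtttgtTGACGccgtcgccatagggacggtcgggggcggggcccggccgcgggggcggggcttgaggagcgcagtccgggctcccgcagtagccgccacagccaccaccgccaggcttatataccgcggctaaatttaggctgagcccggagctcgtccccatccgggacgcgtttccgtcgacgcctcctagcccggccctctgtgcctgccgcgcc
Klf4: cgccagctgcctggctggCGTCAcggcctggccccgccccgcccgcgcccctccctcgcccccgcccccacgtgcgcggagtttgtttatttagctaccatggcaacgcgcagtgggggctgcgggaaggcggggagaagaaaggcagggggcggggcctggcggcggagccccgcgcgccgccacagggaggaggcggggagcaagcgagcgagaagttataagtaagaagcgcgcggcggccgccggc
TGACG occurred 4 times in the Nr4a1 promoter, 3 times in that of Cebpb and once each in those of Klf2 and Klf4, and not in those of Cebpa, Irf8 and Irf4. Of 32851 promoters of the same 300 bases, 20.8% held TGACG. These were not matched for their share of G and C bases, which was 72.3%, 69.3% and 74.3% in the promoters of Nr4a1, Klf2 and Klf4. The full element TGACGTCA, which contains TGACG, and the MEF2 core TATTTATA occurred in none of the 7 members' promoters, beside 1.79% and 1.70% of all promoters. These matches are letters in a window and were not read as binding sites.

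Cells were gated by markers that include none of the 9 factors. Patrolling cells had at least 3 UMIs over Ace, Spn and Treml4 with at least 2 of these genes detected, and numbered 692, 1059 and 375 in control 1, labelled control 3 and knockout 4. The name stands for this gate only: the cells were sorted as Ly6Chi, and their monocyte markers summed to 6077, 8944 and 7762 CPM, beside 5875, 9057 and 7935 CPM in ungated cells. MHC class II high cells (248, 697 and 319) had at least 40 UMIs per 10000 of H2-Aa, H2-Ab1 and H2-Eb1, Arg1-high cells (173, 108 and 738) at least 20 of Arg1, and S100a8-positive cells (196, 141 and 395) at least 20 of S100a8 and S100a9. Cells that passed several gates (132, 194 and 206) were set aside, and ungated cells numbered 2627, 5210 and 2398. Of all cells that passed the MHC class II high gate, 333 (20.2%) also passed the patrolling gate. Setting them aside took patrolling-gated cells out of the MHC class II high group. These gates draw lines through a range: 446, 802 and 334 cells lay near the patrolling threshold, beside 808, 1244 and 482 that passed it. The ungated cells are also the shared reference of all 4 gate comparisons, so those comparisons are not independent of each other. Levels are UMIs summed over the cells of a group, scaled to CPM by that sum's total, and in such sums fewer cells using a gene and less of its RNA per cell cannot be told apart. Because 3' counting takes 1 end of each transcript, these levels carry no length correction, and they are compared across groups and not between genes.

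**Figure D1:**
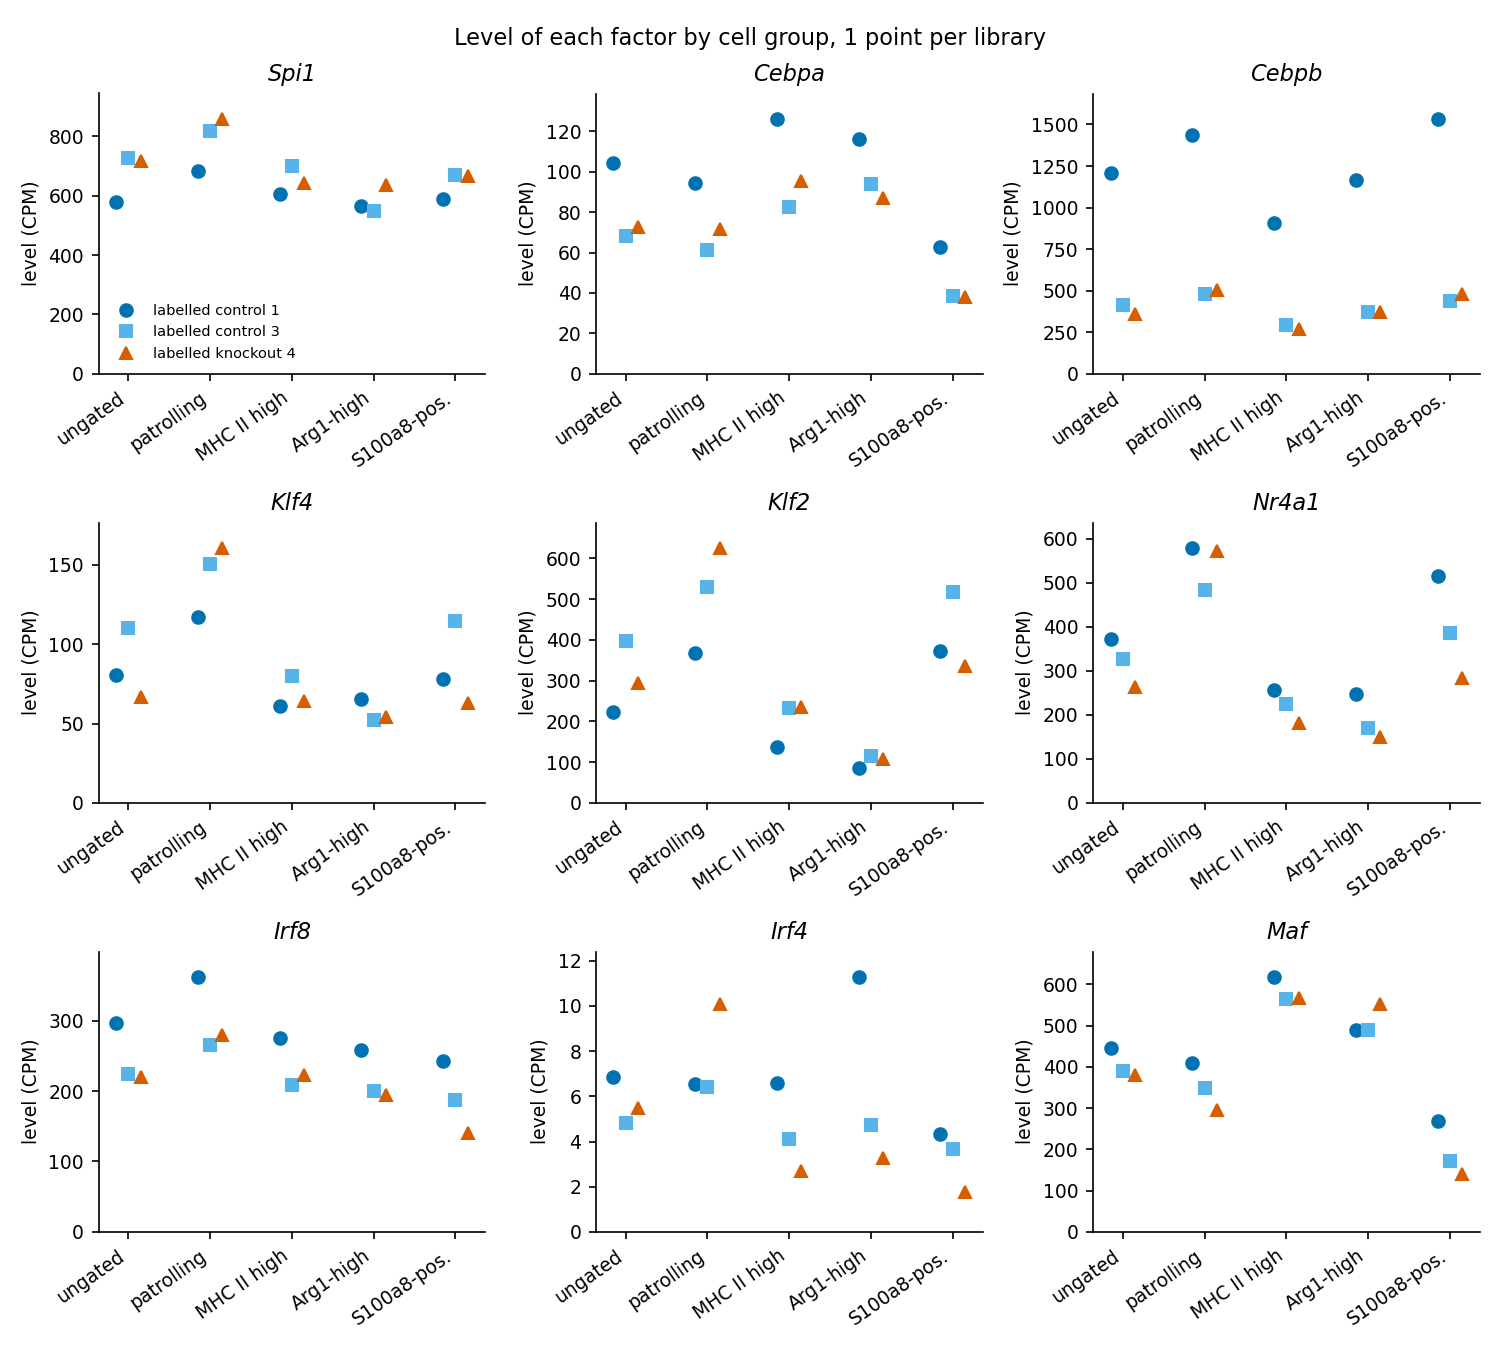
Level of each of the 9 factors (CPM, vertical axis from 0) in 5 cell groups, with 1 point for each library (control 1, labelled control 3, knockout 4). Patrolling cells stand highest for Klf4 and Nr4a1 in all 3 libraries, S100a8-positive cells lowest for Maf, and control 1 stands far above the other libraries for Cebpb in every group.

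The number of factors called varied by gated group. The shares of all genes given beside these counts were not matched for expression level. The factors were also chosen with earlier results of these data known. In patrolling cells 7 of 9 were called (6 higher, 1 lower), where 12.7% of 12871 genes were called in either direction. In MHC class II high cells 6 of 9 were called (2 higher, 4 lower) against 15.7% of 12182 genes, in Arg1-high cells 4 of 9 (1 higher, 3 lower) against 15% of 11962, and in S100a8-positive cells 6 of 9 (3 higher, 3 lower) against 17.7% of 11748. Klf2, Nr4a1 and Maf were called in all 4 groups and Irf4 in none. The median log2 difference of the 9 factors was 0.28, -0.29, -0.16 and -0.05 in the patrolling, MHC class II high, Arg1-high and S100a8-positive groups, beside -0.000570, -0.00141, -0.0103 and -0.0122 over all genes tested.

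**Figure D2:**
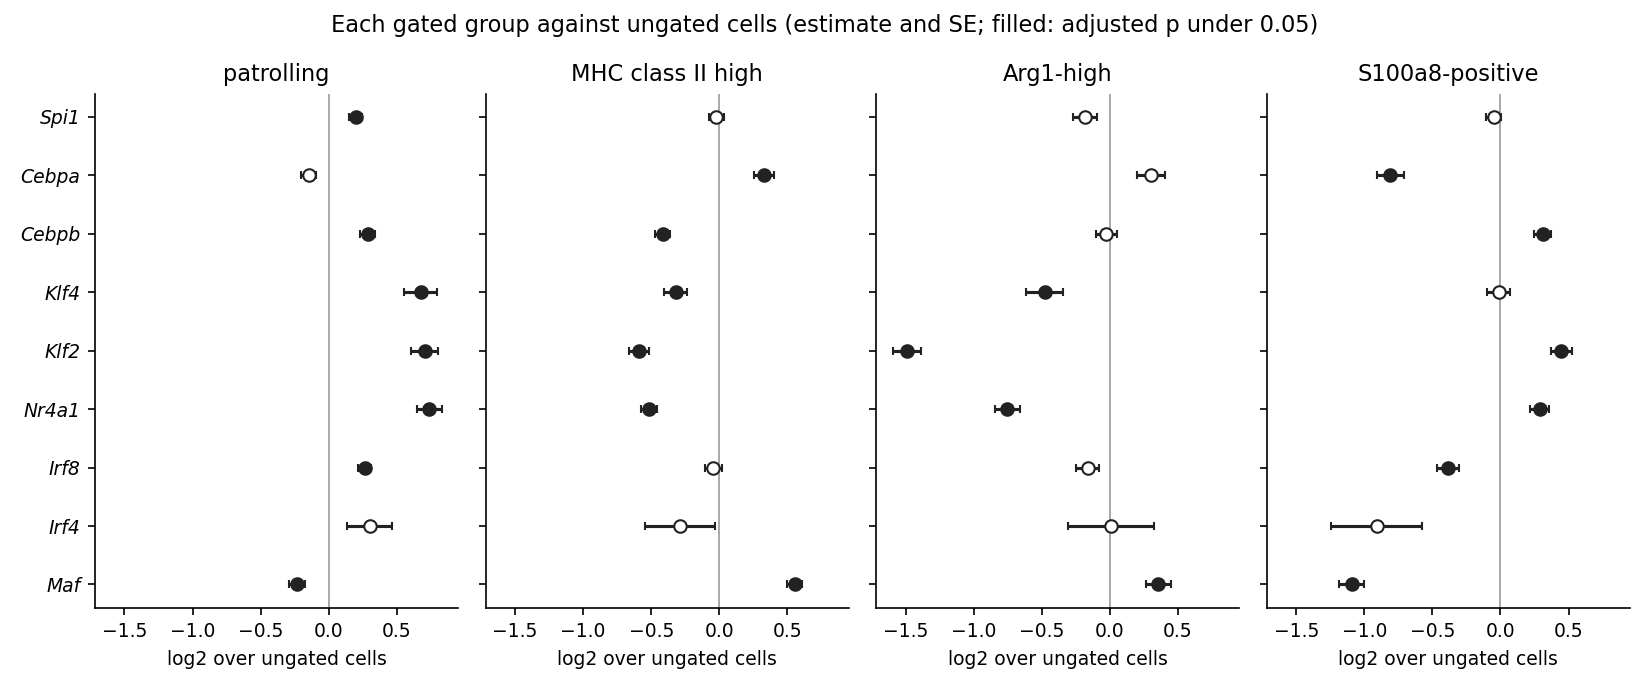
Log2 difference of each gated group from ungated cells for the 9 factors (horizontal axis, estimate ± SE over 3 libraries), 1 panel a group, with filled points where the adjusted p passed the threshold. Klf2 runs from 0.70 in patrolling cells to -1.49 in Arg1-high cells, and Maf from 0.55 in MHC class II high cells to -1.09 in S100a8-positive cells.

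Spi1, the ETS factor that monocytes and macrophages depend on, was the most even of the set. In control 1, labelled control 3 and knockout 4 it stood at 579, 725 and 716 CPM in ungated cells and at 684, 816 and 858 CPM in patrolling cells. Each library was higher in its own patrolling cells, although the ranges of the groups overlapped (log2 0.20 ± 0.05, adjusted p = 0.0219). This call was lost with DESeq2 (adjusted p = 0.0838), with the higher patrolling threshold (0.0742), without control 1 (0.328) and without labelled control 3 (0.0592). The other gated groups did not pass the test for Spi1, with log2 differences of -0.02 in MHC class II high, -0.18 in Arg1-high and -0.05 in S100a8-positive cells. Group means ran from 583 ± 47.9 CPM in Arg1-high cells to 786 ± 90.9 CPM in patrolling cells (SD, n = 3), and the ungated, MHC class II high and S100a8-positive groups between them were not in the same order in every library.

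Cebpa, the C/EBP factor of myeloid progenitors that also stays on in macrophages, was lowest in S100a8-positive cells. It stood there at 62.7, 38.8 and 38.1 CPM in control 1, labelled control 3 and knockout 4, against 104, 68.3 and 72.7 CPM in ungated cells. Every library was lower, and no S100a8-positive value reached the lowest ungated value (log2 -0.81 ± 0.10, adjusted p = 3.11e-06). In MHC class II high cells Cebpa rose to 126, 82.6 and 95.3 CPM (log2 0.33 ± 0.07, adjusted p = 0.00142), a call lost when each cell was thinned to 3000 UMIs (0.0664). Arg1-high cells, at 116, 93.7 and 87.0 CPM, just missed the threshold (log2 0.30, adjusted p = 0.0509). They passed it with the lower gate threshold (log2 0.34, adjusted p = 0.0135). In patrolling cells Cebpa stood at 94.3, 61.2 and 71.7 CPM (log2 -0.15, adjusted p = 0.117). There it was called lower without knockout 4 (-0.18, adjusted p = 0.0181), without high-UMI cells (-0.25, adjusted p = 0.0205) and after thinning (-0.67, adjusted p = 0.00748).

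Cebpb, the inducible C/EBP factor of inflammatory and surviving monocytes, followed an opposite order in part. Its level in ungated cells was 1206, 412 and 361 CPM (control 1, labelled control 3 and knockout 4), so that control 1 stood apart and the spread between libraries (SD 474 CPM around a mean of 659 CPM) exceeded every difference between groups. Within each library, however, S100a8-positive cells were higher at 1533, 440 and 481 CPM (log2 0.31 ± 0.06, adjusted p = 0.000956), and patrolling cells at 1434, 479 and 502 CPM (log2 0.28 ± 0.06, adjusted p = 0.0117). MHC class II high cells were lower in every library, at 908, 296 and 268 CPM (log2 -0.41 ± 0.06, adjusted p = 1.25e-06). In Arg1-high cells, at 1168, 371 and 373 CPM, Cebpb did not pass (log2 -0.03). The patrolling call was lost without control 1 (log2 0.32, adjusted p = 0.130), while the MHC class II high and S100a8-positive calls held under all 11 alternatives run for each.

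Klf4, Klf2 and Nr4a1 moved together: all 3 were higher in patrolling cells and lower in MHC class II high and in Arg1-high cells. The MHC class II high group is what remained after 333 patrolling-gated cells (20.2% of those passing its gate) were set aside. Its lower values hold for that remainder. Klf4, a Krüppel-like factor that monocytes need in order to form, stood at 80.6, 110 and 66.9 CPM in ungated cells and at 117, 150 and 161 CPM in patrolling cells of control 1, labelled control 3 and knockout 4. No patrolling value overlapped the ungated ones, and the difference was log2 0.67 ± 0.12 (adjusted p = 0.00804). In Arg1-high cells it fell to 65.3, 52.1 and 53.9 CPM (log2 -0.48 ± 0.14, adjusted p = 0.0250), and all 3 values lay below the lowest ungated library. In MHC class II high cells, at 60.8, 80.2 and 64.3 CPM, it was lower in each library by unequal amounts (log2 -0.32 ± 0.08, adjusted p = 0.00733). In S100a8-positive cells Klf4 stood at 77.9, 115 and 62.8 CPM, which did not differ by the test (log2 -0.01, adjusted p = 0.952).

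The patrolling call for Klf4 held under all 12 alternatives, and the other calls for it did not. The Arg1-high call was lost with DESeq2 (adjusted p = 0.05004), without control 1 (log2 -0.57, adjusted p = 0.119) and without labelled control 3 (-0.26, adjusted p = 0.220). The MHC class II high call was lost with DESeq2 (0.125), after thinning (0.255), without labelled control 3 (log2 -0.21, adjusted p = 0.253), and when cells of several gates were kept (-0.04, adjusted p = 0.783).

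Klf2, a Krüppel-like factor known for restraining inflammatory activation, had the widest range of the set. It stood at 224, 396 and 294 CPM in ungated cells, at 368, 529 and 626 CPM in patrolling cells and at 86.7, 116 and 108 CPM in Arg1-high cells of control 1, labelled control 3 and knockout 4. Arg1-high values were all below every ungated value (log2 -1.49 ± 0.10, adjusted p = 2.58e-08). Patrolling cells were higher in every library, although control 1's patrolling value lay below labelled control 3's ungated one (log2 0.70 ± 0.10, adjusted p = 0.00301). S100a8-positive cells were also higher, at 372, 519 and 335 CPM (log2 0.45 ± 0.08, adjusted p = 0.000265), and MHC class II high cells lower, at 136, 232 and 235 CPM (log2 -0.59 ± 0.07, adjusted p = 1.65e-07). All 4 calls for Klf2 held under every alternative run, but the size of the MHC class II high difference ranged from -0.72 to -0.26 over them. The set-aside cells of several gates held Klf2 at 318, 433 and 233 CPM.

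Nr4a1, an orphan nuclear receptor, was highest in the cells of the patrolling gate. It stood at 579, 484 and 572 CPM there, against 373, 328 and 263 CPM in ungated cells of control 1, labelled control 3 and knockout 4. The 2 sets of values did not overlap (log2 0.74 ± 0.09, adjusted p = 0.00188). In S100a8-positive cells it stood at 516, 386 and 283 CPM (log2 0.29 ± 0.07, adjusted p = 0.00476), a call lost after thinning (log2 0.16, adjusted p = 0.146) and without control 1 (0.19, adjusted p = 0.119). It fell in MHC class II high cells to 258, 225 and 181 CPM (log2 -0.52 ± 0.06, adjusted p = 8.22e-08) and in Arg1-high cells to 248, 169 and 150.3 CPM (log2 -0.75 ± 0.09, adjusted p = 1.74e-05), both lower in all 3 libraries. The patrolling, MHC class II high and Arg1-high calls held under every alternative run. The size of the MHC class II high difference ranged from -0.57 to -0.19 over those alternatives. Cells of several gates, which were set aside, held Nr4a1 at 476, 405 and 299 CPM.

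The patrolling gate counts UMIs per cell, so it can favour deeper cells, and its cells were deeper in both controls but not in knockout 4. Patrolling cells had medians of 10413.5, 13002 and 6748 UMIs in control 1, labelled control 3 and knockout 4, against 8492, 7849 and 6776.5 in ungated cells. With a gate of 4 UMIs per 10000 in its place, an alternative added after seeing the data, the log2 differences were 1.10 for Klf2, 0.95 for Klf4 and 0.95 for Nr4a1. After each cell was thinned to 3000 UMIs before gating they were 1.20, 1.09 and 1.03. The 3 differences were larger under both alternatives. Thinning also left fewer cells in the gate, 454 against 2126, so depth and the strictness of the gate cannot be told apart here. Among thinned cells, Nr4a1 had at least 1 UMI in 80.0% of 454 patrolling cells, 54.0% of 10341 ungated cells and 32.1% of 938 Arg1-high cells (unthinned 91.3%, 68.2% and 49.7%). The shares for Klf2 were 64.1%, 43.1% and 21.4% (unthinned 79.0%, 54.7% and 34.7%), and those for Klf4 were 37.2%, 22.0% and 12.4% (61.8%, 34.8% and 24.5%). For comparison, 27 lymphocyte-gated cells thinned to the same depth held Nr4a1 in 14.8% and Klf4 in 0% (0 of 27, which allows a share of cells with a UMI of up to 11.1%). Lymphocytes use Klf2 themselves and held it in 51.9%. Their own use of Nr4a1 was not tested, so its share may hold more than free RNA.

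Immediate-early and dissociation genes, which can be switched on while tissue is digested, were counted beside this trio because Klf4, Klf2 and Nr4a1 also respond rapidly. In patrolling cells 1 of 15 was higher (Dnajb1, log2 0.24) and 2 were lower (Ier3 -0.64, Fos -0.23), beside 12.7% of all genes, with a list median of 0.08 against -0.000570 over all genes. In MHC class II high cells 2 were higher and 7 lower, among them Fos (-0.42), beside 15.7% of all genes, and in Arg1-high cells 1 was higher (Ier3, 0.72) and 4 were lower, among them Hspa1b (-1.12) and Hspa1a (-0.95), beside 15%. In S100a8-positive cells, where Klf2 and Nr4a1 rose, 0 were higher and 6 lower, among them Egr1 (-0.68) and Jun (-0.54), beside 17.7%. The part of digestion in these levels was not tested.

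Irf8, the interferon regulatory factor of the monocyte and dendritic cell branch, was moderately graded. It stood at 296, 224 and 221 CPM in ungated cells and at 362, 266 and 279 CPM in patrolling cells of control 1, labelled control 3 and knockout 4. Each library was higher in its patrolling cells, with overlap between libraries (log2 0.26 ± 0.05, adjusted p = 0.00824), and the call was lost after thinning (adjusted p = 0.0932) and without control 1 (log2 0.27, adjusted p = 0.153). In S100a8-positive cells it fell to 243, 187 and 140 CPM (log2 -0.38 ± 0.08, adjusted p = 0.00107), lower in every library and most so in knockout 4. MHC class II high cells (276, 209 and 223 CPM, log2 -0.04) and Arg1-high cells (258, 200 and 194 CPM, log2 -0.16) did not pass. Markers of type 2 conventional dendritic cells, which are known to depend on Irf4, summed to 64.7, 54.2 and 19.3 CPM in MHC class II high cells against 22.1, 24.1 and 19.5 CPM in ungated ones, and their part in these values was not tested. Markers of type 1 conventional dendritic cells, which are known to depend on Irf8, summed to 324, 311 and 372 CPM in S100a8-positive cells against 220, 194 and 212 CPM in ungated ones, with Clec9a at 0 in the former, and their part was not tested either.

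Irf4 was close to the limit of detection. Over all monocyte-macrophage cells it gave 265, 366 and 151 UMIs in control 1, labelled control 3 and knockout 4, or 6.80, 5.08 and 5.10 CPM. After thinning it was seen in 1.56% of 13994 cells (4.03% unthinned), and in 1 of 27 lymphocyte-gated cells, a cell type that can itself use Irf4. By group it stood between 1.75 CPM (S100a8-positive cells of knockout 4) and 11.3 CPM (Arg1-high cells of control 1), and the libraries disagreed in order. No gated group passed for Irf4, and its log2 difference in S100a8-positive cells was -0.91 (adjusted p = 0.0656). It was called with a lower S100a8 threshold (-0.78, adjusted p = 0.0436), without high-UMI cells (-1.05, 0.0408) and without labelled control 3 (-1.06, 0.0380), and it was -0.54 (0.514) without knockout 4. Differences of this gene below its spread were not detectable at this depth.

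Maf, the large Maf factor of mature macrophages, ran against the patrolling trio. In ungated cells it stood at 445, 389 and 381 CPM, in MHC class II high cells at 618, 565 and 568 CPM and in S100a8-positive cells at 268, 171 and 140 CPM (control 1, labelled control 3 and knockout 4). The 3 sets of values did not overlap. The rise in MHC class II high cells was log2 0.55 ± 0.06 (adjusted p = 4.11e-09) and the fall in S100a8-positive cells log2 -1.09 ± 0.09 (adjusted p = 2.54e-08), and both calls held under every alternative run. Arg1-high cells were higher too, at 488, 489 and 551 CPM (log2 0.36 ± 0.09, adjusted p = 0.0113), a call lost without knockout 4 (log2 0.21, adjusted p = 0.162).

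In patrolling cells Maf stood at 410, 348 and 296 CPM, lower than ungated cells in each library (log2 -0.23 ± 0.06, adjusted p = 0.0315). That difference was -0.44 with the gate per 10000 and -0.86 after thinning, which also left fewer gated cells. It was no longer called with DESeq2 (adjusted p = 0.0728), with the higher patrolling threshold (0.117), with cells of several gates kept (0.0640), without control 1 (log2 -0.28, adjusted p = 0.150) or without labelled control 3 (-0.26, adjusted p = 0.0519). Within each library, macrophage markers put the gated and ungated groups in the same order as Maf. They summed to 9153, 10659 and 10949 CPM in MHC class II high cells and 5352, 7138 and 5994 CPM in Arg1-high cells. Ungated cells followed at 5240, 6224 and 4677 CPM, then patrolling cells at 4391, 5063 and 3942 CPM. S100a8-positive cells were last at 2011, 2541 and 962 CPM. Monocyte markers were highest in S100a8-positive cells (9699, 12588 and 11839 CPM).

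MHC class II high cells were split at 10 UMIs per 10000 of C1qa, C1qb and C1qc, complement genes of tissue macrophages, into C1q-positive (108, 271 and 160) and C1q-low cells (140, 426 and 159). Of 8 factors tested 4 were called (Irf4 was too low to test), beside 2.65% of 7631 genes. Nr4a1 was lower in C1q-positive cells, at 196, 193 and 150 CPM against 318, 246 and 213 CPM, with no overlap between the sets (log2 -0.49 ± 0.09, adjusted p = 0.000524). Klf4 was lower at 34.5, 66.8 and 54.1 against 86.5, 89.5 and 75.1 CPM (log2 -0.60 ± 0.14, adjusted p = 0.00665), and Klf2 at 84.5, 205 and 219 against 186, 251 and 251 CPM (log2 -0.43 ± 0.11, adjusted p = 0.0118). Control 1 carried much of this, since without it Klf4 stood at -0.43 (adjusted p = 0.210) and Klf2 at -0.25 (adjusted p = 0.414), and a C1q threshold of 5 ended the Klf4 call (0.174) and DESeq2 the Klf2 call (0.107). A threshold of 20 added Cebpb (log2 -0.34, adjusted p = 0.00128).

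Maf was called higher in C1q-positive cells (log2 0.29 ± 0.08, adjusted p = 0.0417), but the libraries did not share the direction. It stood at 751, 643 and 545 CPM in C1q-positive cells against 489, 510 and 592 CPM in C1q-low cells of control 1, labelled control 3 and knockout 4. The log2 differences were thus 0.62, 0.33 and -0.12. The call ended with DESeq2 (adjusted p = 0.877), with library totals (0.0786), at the C1q threshold of 5 (0.312), without control 1 (log2 0.13, adjusted p = 0.733) and without labelled control 3 (0.24, adjusted p = 0.285). Only the Nr4a1 call, of these 4, held under all 8 alternatives run for it.

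Knockout 4 was then compared with the controls over all monocyte-macrophage cells. By edgeR 0 of 9 factors passed, where 0.169% of 14789 genes did, 1 had an unadjusted p under 0.05, and DESeq2 called 0. The knockout comparisons of the different groups share the same 3 libraries. Nr4a1 stood at 424, 359 and 271 CPM in control 1, labelled control 3 and knockout 4, lower in the knockout than in both controls (log2 -0.48 ± 0.17, unadjusted p = 0.0240, adjusted p = 0.523). Klf4 was likewise below both controls at 88.5, 118 and 73.6 CPM (log2 -0.44 ± 0.21, adjusted p = 0.639), and so was Irf8 at 308, 234 and 214 CPM (log2 -0.29 ± 0.19, adjusted p = 0.712). The remaining 5, Spi1, Cebpa, Klf2, Irf4 and Maf, lay between the controls, with log2 values from -0.18 to 0.10. Against control 1 and labelled control 3 in turn, Spi1 was 0.27 and -0.04, Cebpa -0.42 and 0.14, Irf4 -0.36 and 0.04, and Maf -0.10 and 0.05, so that each changed sign with the control. The 9 factors had a median of -0.18 beside -0.01 over all genes. Of the 15 immediate-early and dissociation genes 0 were called in the same cells (list median -0.17). Fosb stood at 75.4, 62.1 and 31.6 CPM, Atf3 at 714, 669 and 428 CPM and Fos at 1569, 2042 and 1022 CPM, lowest in knockout 4 like Nr4a1. Dusp1 and Egr1 were also lowest there. Ier3 (400, 345 and 515 CPM) and Dnajb1 (39.6, 44.0 and 48.6 CPM) were highest in knockout 4. Jun, Ier2, Btg2 and Hspa1b lay between the controls, and so did Hspa1a, highest in labelled control 3 (24.3, 191 and 39.3 CPM). Their part in the genotype values was not tested.

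Cebpb carried the widest gap of the 9 and the controls did not share it. Its levels were 1266 CPM for control 1, 418 CPM for labelled control 3 and 383 CPM for knockout 4 (log2 -1.08 ± 0.55, adjusted p = 0.649). Against control 1 alone the knockout was -1.67, and against labelled control 3 it was -0.09. The controls themselves differed 3.03-fold, and 2.61% of 16994 genes were as far apart between them. Without a filter on low counts the same difference was called (adjusted p = 4.92e-07), a call that rests on control 1. Nr4a1 was -0.59 against control 1 and -0.37 against labelled control 3, Klf4 -0.21 and -0.64, and Irf8 -0.47 and -0.09. For Klf2 the sign depended on the control, at 0.21 against control 1 and -0.48 against labelled control 3. The knockout library was nearer to labelled control 3 than to control 1 for 7 of 9 factors, and for 54.3% of 15225 genes.

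**Figure D3:**
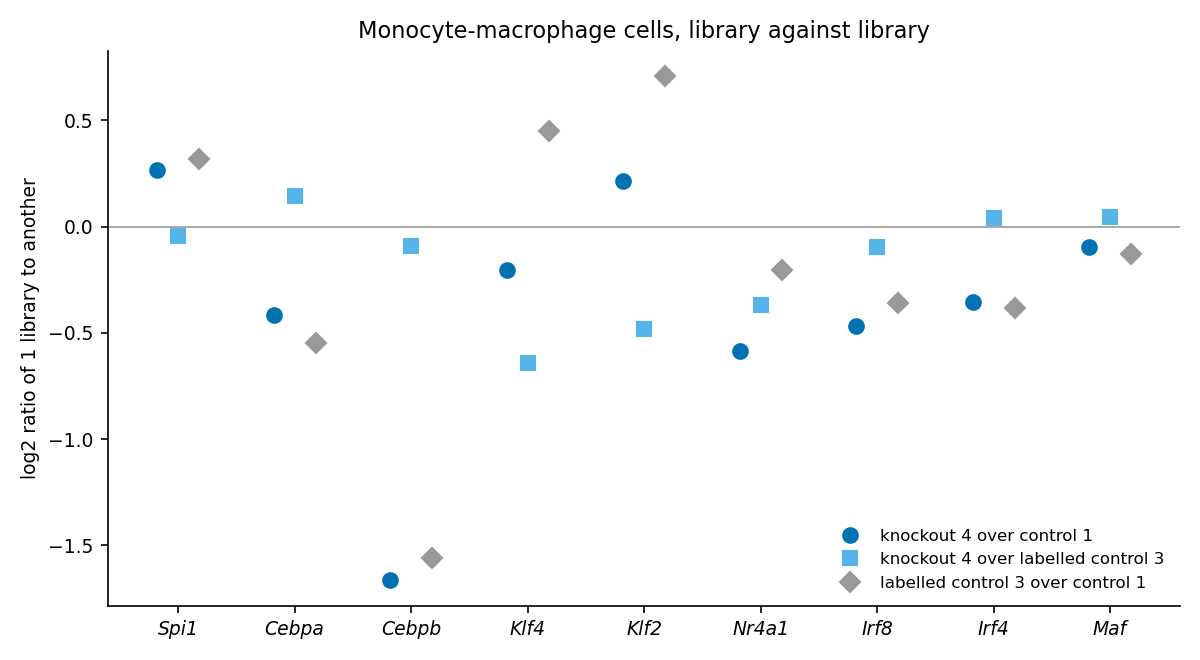
Log2 ratio of knockout 4 to control 1, of knockout 4 to labelled control 3, and of labelled control 3 to control 1 (vertical axis), for each of the 9 factors over monocyte-macrophage cells. For Cebpb the ratio to control 1 is -1.67 and that to labelled control 3 is -0.09, and labelled control 3 is itself far below control 1.

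Within gated groups the same comparison holds the mix of groups fixed. In patrolling cells 0 of 9 factors were called by edgeR (0 at an unadjusted p under 0.05, 0 by DESeq2), beside 0% of 12120 genes. For MHC class II high cells it was 0 of 9 (1 unadjusted, 0 by DESeq2) beside 0.402%, with Cebpb at log2 -1.13 ± 0.32 (adjusted p = 0.167), which was -1.73 against control 1 and -0.14 against labelled control 3. In ungated cells it was 0 of 9 (0 unadjusted, 0 by DESeq2) beside 0.0586%. In S100a8-positive cells it was 0 of 8 tested (6 unadjusted, 0 by DESeq2) beside 1.04% of genes, with 9.78% at an unadjusted p under 0.05. Of those 6, Nr4a1 was the lowest in p, at 516, 386 and 283 CPM in control 1, labelled control 3 and knockout 4 (log2 -0.65 ± 0.18, adjusted p = 0.0929), or -0.84 against control 1 and -0.42 against labelled control 3. The others were Cebpb (-1.02), Maf (-0.64), Irf8 (-0.60), Klf4 (-0.58) and Klf2 (-0.38), with adjusted p from 0.176 to 0.507. Against control 1 and labelled control 3 in turn, Cebpb was -1.65 and 0.15, Maf -0.91 and -0.26, Irf8 -0.77 and -0.39, Klf4 -0.28 and -0.84, and Klf2 -0.12 and -0.60. Of these 5, Cebpb changed sign with the control.

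In Arg1-high cells 1 of 9 factors was called, beside 9.4% of 9012 genes. It was Cebpb, at 1168, 371 and 373 CPM in control 1, labelled control 3 and knockout 4 (log2 -0.98 ± 0.15, adjusted p = 1.14e-08). Knockout 4 was level with labelled control 3 and only control 1 was high, and without control 1 the value was 0.08, while DESeq2 gave an adjusted p of 0.942. Nr4a1 stood at 248, 169 and 150.3 CPM, below both controls (log2 -0.41 ± 0.17, adjusted p = 0.0971), and was called when scaled by library totals (log2 -0.49, adjusted p = 0.0312). It was -0.65 against control 1 and -0.10 against labelled control 3. The share of cells in this group was itself far from even, at 4.25%, 1.46% and 16.7% of monocyte-macrophage cells. Platelet markers summed to 17.2, 14.2 and 75.4 CPM in it, with Itga2b and Gp1bb at 0. The part of these markers and of the uneven shares in these values was not tested.

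The patrolling difference of the trio was wider in the knockout library. The test asked whether the log2 difference between gated and ungated cells itself differed by genotype, and it called 3 of 9 factors in patrolling cells beside 1.43% of 13599 genes. For Klf4 the difference was 0.54 in control 1, 0.45 in labelled control 3 and 1.26 in knockout 4 (difference of differences 0.78 ± 0.10, adjusted p = 0.00140). For Nr4a1 it was 0.63, 0.56 and 1.12 (0.52 ± 0.07, adjusted p = 0.00201), and for Klf2 0.71, 0.42 and 1.09 (0.53 ± 0.10, adjusted p = 0.0191, with DESeq2 0.0917). The knockout value of this difference lay above both controls for all 3. In knockout 4, patrolling Nr4a1 (572 CPM) lay between the controls (579 and 484), and ungated Nr4a1 (263) below both (373 and 328). Klf4 was above both controls in patrolling cells (161 against 117 and 150) and below both in ungated cells (66.9 against 80.6 and 110). Klf2 was above both in patrolling cells (626 against 368 and 529) and between them in ungated cells (294 against 224 and 396).

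Depth moved with this result: the patrolling cells of knockout 4 were no deeper than its ungated cells, while those of both controls were. With the gate per 10000 the log2 differences for Klf4 were 0.83, 0.69 and 1.45 in control 1, labelled control 3 and knockout 4 (0.67, adjusted p = 1.85e-05), and for Nr4a1 0.91, 0.74 and 1.23 (0.39, adjusted p = 0.000724). Klf2 was no longer called, at 1.22, 0.82 and 1.26 (0.22, adjusted p = 0.243). After thinning to 3000 UMIs none of the 3 was called (adjusted p = 0.977 for each), with values of 1.02, 0.88 and 1.50 for Klf4 (0.52), 1.46, 0.80 and 1.44 for Klf2 (0.29) and 1.08, 0.89 and 1.18 for Nr4a1 (0.15). Control 1 and knockout 4 thus stood at nearly the same Klf2 difference after thinning, and Klf4 kept the higher value in the knockout without passing the test. Summed patrolling markers were 747, 556 and 1125 CPM in patrolling cells and 149, 154 and 147 CPM in ungated cells. These markers include the gate genes Ace, Spn and Treml4, so the gate itself sets much of that contrast. A fixed number of UMIs per cell is also a higher CPM in shallower cells, as the patrolling cells of knockout 4 were. The part of these markers in the result was not tested.

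**Figure D4:**
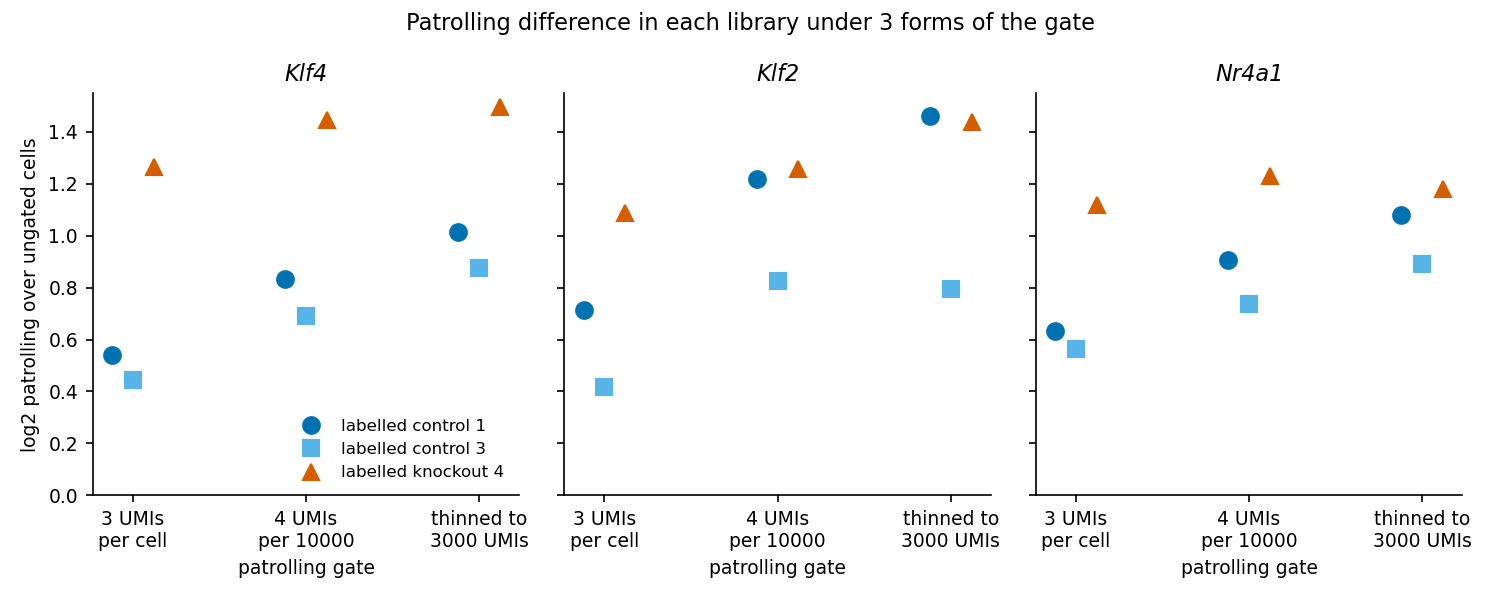
Log2 difference between patrolling and ungated cells (vertical axis) for Klf4, Klf2 and Nr4a1 in each library, under a gate of 3 UMIs per cell, a gate of 4 UMIs per 10000, and cells thinned to 3000 UMIs. Knockout 4 stands above both controls at 3 UMIs per cell (1.26, 1.09 and 1.12), and after thinning it is level with control 1 for Klf2.

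In the other groups 0 of 9 factors were called by this test: in MHC class II high cells beside 0.252% of genes (2 unadjusted, 0 by DESeq2), in Arg1-high cells beside 0.612% (2 unadjusted, 0 by DESeq2) and in S100a8-positive cells beside 0.233% (3 unadjusted, 0 by DESeq2). Among rapid response genes in patrolling cells, 3 of 15 were called with the trio's sign (Hspa1b 1.51, Hspa1a 1.18 and Btg2 0.30) and 1 against it (Ier3, -0.40), beside 1.43% of all genes.

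Relatives of the 9 factors were counted from a list of 23, of which 22 could be tested in the gate comparisons, where 12.7%, 15.7%, 15% and 17.7% of all genes were called in patrolling, MHC class II high, Arg1-high and S100a8-positive cells. The counts of this list and of the next ones are descriptions to be read beside those shares. In patrolling cells 4 rose and 0 fell, among them Spic (log2 0.70), a relative of Spi1 known from iron-recycling macrophages, and Klf13 (0.28). Among MHC class II high cells 4 rose and 5 fell, among them Spic (1.38), Klf13 (-0.49) and Cebpd (-0.52). In Arg1-high cells 2 rose, among them Klf9 (0.65), and 4 fell, among them Klf13 (-0.80) and Cebpd (-0.91). In S100a8-positive cells 4 rose and 5 fell, with Cebpe, the C/EBP factor of granulocytes, at 1.59, Cebpd at 0.42 and Spic at -1.90. Klf13 therefore rose and fell with Klf2 in all 4 groups, and Cebpd was lower with Cebpb in MHC class II high cells and higher with it in S100a8-positive cells. In the other groups Cebpd and Cebpb parted. Cebpb was -0.03 in Arg1-high cells, where Cebpd fell. In patrolling cells, where Cebpb rose, Cebpd stood at 67.5, 127 and 106 CPM against 78.9, 148 and 102 CPM in ungated cells (control 1, labelled control 3 and knockout 4). After neutrophil-gated cells had been left out, neutrophil markers summed to 7.03, 7.31 and 7.68 CPM in S100a8-positive cells (control 1, labelled control 3 and knockout 4). In ungated cells they summed to 1.69, 1.10 and 2.42 CPM.

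Of 17 other myeloid fate factors tested, 7 rose and 2 fell in MHC class II high cells, among them Nr1h3 (log2 0.86), the LXR alpha receptor of Kupffer cells and macrophages, Id3 (0.76) and Pparg (0.82), which rose with Maf. In S100a8-positive cells 2 rose and 9 fell, and the same 3 stood at -1.89, -1.81 and -1.60. In Arg1-high cells 7 rose and 4 fell, among them Tfec (1.24), Egr2 (1.35), Bhlhe40 (0.94) and Mitf (0.93). In patrolling cells 4 rose and 2 fell, with Batf3 at 0.51, Bhlhe40 at 0.41 and Nr1h3 at 0.35. Between genotypes, Tfec alone of the 4 lists was called over monocyte-macrophage cells (log2 1.42 ± 0.15, adjusted p = 0.0286).

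Genes that the 9 factors are known to act on were counted from a list of 21. In patrolling cells 4 of 20 rose, among them Ciita (log2 0.79), the master switch of MHC class II genes, and 9 fell, among them Cd14 (-0.77), C1qc (-0.61) and Fcgr1 (-0.52). Of the same list 7 rose and 9 fell in MHC class II high cells, and in Arg1-high cells 10 rose and 4 fell, with Prtn3 at -1.86. The 10 include Arg1 itself, which the gate selects. In S100a8-positive cells 5 rose, among them Prtn3 (1.66), and 9 fell, among them C1qa (-3.50) and C1qb (-2.51).

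The genes most like each factor were taken by Pearson's r of log2(CPM + 1) over the 15 sums of library and group, as a description: the sums share libraries, and no test was made. Maf was nearest to Mertk (0.98), C1qb (0.97) and Rgs1 (0.96), Klf2 to Ssh2, Fam107b and Plac8 (0.97 each), and Nr4a1 to Grk2 (0.97), Eif4ebp2 and Gpx1 (0.96 each). Klf4 was nearest to Map3k3 (0.95), Cebpa to Dnmt3a, Dnase2a and Anxa3 (0.97 each), Irf8 to Chd9 (0.95), Spi1 to Tnip1 (0.92) and Cebpb to Tpcn1 (0.92). For Irf4, at its low counts, the nearest was Dusp7 (0.90).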

How the data were processed

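Single Ly6Chi monocytes were captured in droplets and 3' ends sequenced with UMIs. The authors deposited raw UMI counts per gene and barcode, made with Cell Ranger 3.0.2 after bcl2fastq on GRCm38, per the submitters' processing notes. Kept cells had at least 500 genes and at most 10% mitochondrial UMIs. No doublet caller was run; leaving out cells over 2 times their library's median UMIs was an alternative. Counts were summed per library and group, with at least 20 cells a sum, over 2 control libraries and 1 knockout library, whose spread was assumed equal to the controls'. CPM (counts per 1e6) divides by the total of the sum. Sums were compared with edgeR 4.0.16 in R 4.3.3 (TMM, filterByExpr, glmQLFTest, two-sided, Benjamini-Hochberg over all genes tested, called at an adjusted p under 0.05). Gate comparisons had the library as a block, and DESeq2 1.42.0 was an alternative. Fold changes are log2 ± SE. Thinning drew 3000 UMIs per cell and left out 527, 713 and 757 shallower cells. The method was tested on simulated data. Of the gene identifiers 99.7% matched GENCODE M21. All 9 factors were named in every comparison, up to 4 genes per list with the smallest p among those past the threshold (2 where none passed), and the 3 genes most like each factor, with some left unprinted here. The members, gates and lists were chosen with earlier results of these data known.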

Additional observations from a re-analysis of the deposited data

Results flagged for a closer look

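The patrolling difference of 3 factors differed between the knockout library and the control libraries by edgeR's test of that difference: Klf4 by 0.78, Klf2 by 0.53 and Nr4a1 by 0.52 on the log2 scale. Knockout 4 was above control 1 and labelled control 3 in all 3 cases, and none was called after thinning to equal depth.

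In 2 further cases both controls moved one way and knockout 4 the other, and these differences were not tested on that ground alone. Cebpb in Arg1-high cells, relative to ungated cells, was 0.0480 in knockout 4 against -0.05 in control 1 and -0.15 in labelled control 3. Irf8 in MHC class II high cells was 0.0149 in knockout 4 against -0.10 in each control.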

How the results depend on the processing

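Of 835 alternative values, 703 kept their direction and their side of the threshold (or moved by less than the spread), 38 lost a call, 18 gained one, 25 turned direction and 51 moved. Counts of called factors changed as follows. Without a filter on low counts, 1 factor was called for the knockout over monocyte-macrophage cells, 1 in patrolling, 1 in MHC class II high, 2 in S100a8-positive and 1 in ungated cells. After thinning, added after seeing the data for comparisons of genotype, 0 were called for the patrolling difference by genotype. For the knockout, 1 (Cebpb) was then called in each of the patrolling, MHC class II high and S100a8-positive groups. Unthinned and without control 1, Cebpb was 0.0950, -0.14 and 0.153 between genotypes in those groups in turn. DESeq2 called 1 in the C1q comparison and 0 for the knockout in Arg1-high cells, where library totals gave 2. C1q thresholds of 5 and 20 gave 2 and 5, and the MHC class II high difference by genotype gave 1 without high-UMI cells. Leaving out a library gave 3 to 8 called factors in patrolling cells and 1 to 4 in the C1q comparison. The other settings gave 5 to 8 in patrolling, 4 to 6 in MHC class II high, 3 to 5 in Arg1-high and 5 to 7 in S100a8-positive cells.

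Directions turned as follows. For Irf4 in Arg1-high cells, library totals gave -0.0268, no filter -0.0459, cells of several gates kept -0.0624 and no high-UMI cells -0.0623, and leaving out a library gave -0.49 to 0.49; in patrolling cells thinning gave -0.0270. For Klf4 in S100a8-positive cells, DESeq2 gave 0.00360, a lower gate threshold 0.15, several gates kept 0.0402, and leaving out a library -0.0265 to 0.0203. With several gates kept in MHC class II high cells, Spi1 was 0.0314 and Irf8 0.0688. For Irf8 in the C1q comparison, thresholds of 5 and 20 gave 0.0198 and 0.0173. Leaving out a library gave -0.0597 to 0.0295 for Spi1 in MHC class II high cells, -0.0853 to 0.00175 for Spi1 in S100a8-positive cells, -0.107 to 0.0458 for Cebpb in Arg1-high cells, -0.151 to 0.0168 for Irf8 in the C1q comparison and -1.58 to 0.0831 for Cebpb between genotypes in Arg1-high cells. Without control 1 Cebpb was also 0.0950 between genotypes in patrolling and 0.153 in S100a8-positive cells. Thinned, the knockout difference was -0.22 for Nr4a1 in patrolling cells, 0.0463 for Cebpa and 0.30 for Klf4 in MHC class II high cells, 0.13 for Klf4 in Arg1-high cells and 0.11 for Irf4 in ungated cells. The cause of these changes was not tested. No paired analysis was possible because the control libraries (1 and 3) and the knockout library (4) share no replicate number. Without 1 control the difference by genotype of a gate has no residual degrees of freedom and was not run. A single knockout library, a control whose cre counts go against its label, and Irf4's few UMIs limit these results.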
